A study of Mus musculus with 12 samples.

Results

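The 10 genes described here encode the transcription factors of naive pluripotency Nanog, Klf2, Klf4, Klf5, Esrrb, Tfcp2l1, Tbx3, Zfp42, Nr0b1 and Nr5a2. They were chosen by name, and all 10 were found in each of the 3 deposited tables, which list 19718 to 19996 genes and share 19718. RNA of mouse embryonic stem cells was sequenced in 12 libraries, 2 for each of 6 groups. Foxd3fl/fl;Cre-ER cells, in which a floxed Foxd3 is removed once 4-hydroxytamoxifen (TM) activates the recombinase, were sampled with TM (2 µM, 3 days; Foxd3-/-) and without it (Foxd3fl/fl). Both were grown in SL, which is 15% serum plus LIF on irradiated fibroblast feeders, and in 2i, which is serum-free N2B27 plus LIF with the MEK inhibitor PD0325901 (0.4 µM) and the GSK3 inhibitor CHIR99021 (3 µM). The last pair comprised tetON Foxd3 cells, which express Foxd3 from a doxycycline-inducible construct, and wild-type LF2 cells (WT), each given doxycycline for 3 days (1 µg/µl in the protocol for tetON Foxd3) in the same serum plus LIF without feeders. All Foxd3fl/fl;Cre-ER groups carry the floxed allele and Cre-ER. The labels do not say which promoter drives Cre-ER, how many clones were used or whether replicates came from separate cultures. The p-values therefore rest on a spread between libraries that may be purely technical. No group received TM without the floxed allele. No group held tetON Foxd3 cells without doxycycline, so Foxd3 overexpression and the cell line cannot be told apart in the last pair.

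Naive pluripotency is the state of the epiblast before implantation and of mouse embryonic stem cells kept with LIF or in 2i. These factors hold it together as a network: LIF acts through Stat3 on Klf4 and Tfcp2l1, inhibition of GSK3 relieves repression of Esrrb and other targets by Tcf7l1, and inhibition of MEK removes the ERK signal that starts the exit from the state. As the cells leave it, most of the factors are shut down, and forkhead factors such as Foxd3 have been studied for a part in that step.

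Foxd3 was examined first, as the check of the labels. It measured 1.62 and 1.83 FPKM in the SL Foxd3-/- libraries, against 4.53 and 4.81 FPKM in the SL Foxd3fl/fl libraries. The groups did not overlap, but the log2 difference of -1.06 did not pass (limma adjusted p = 0.137). Foxd3 measured 2.07 and 2.45 FPKM in the 2i libraries labelled Foxd3-/-, against 2.51 and 2.42 FPKM in the 2i Foxd3fl/fl libraries. The 2i groups thus overlapped and are called here by their labels. The authors' deposited table gives Foxd3 376 mean reads in the 2i group labelled Foxd3-/- and 221 in 2i Foxd3fl/fl. That is a fold of 1.7, opposite to the label, with an adjusted p of 9.43e-06 (deposited p-values, adjusted here). In tetON Foxd3 it reached 53.2 and 50.1 FPKM, against 10.6 and 14.1 FPKM in WT. All 11 embryonic stem cell markers examined, Pou5f1 and Sox2 among them, were at 1 FPKM or more in every library. Scaling factors (median of ratios) of the 12 libraries ran from 0.857 to 1.07, with both 2i Foxd3fl/fl libraries lowest. The depth of single libraries is unknown. The authors' mean reads of a group summed to 24278898 and 27062508 in the 2i groups and to between 52789850 and 54096080 in the other groups.

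Promoter windows (250 bases before to 50 after a start, RefSeq, GRCm38.p6) were found for 8 of the 10 genes, in 11 windows; Klf5 and Tbx3 were without one. Of 5 motifs searched on both strands, TGTTTAC (forkhead) and TCAAGGTCA (ESRRB and NR5A2) had no exact match in any of the 11. The windows of 3 genes, Nanog, Esrrb and Zfp42, held a match, and a window of each is shown. A second Esrrb window (chr12:86421394-86421693) held none, nor did those of Klf2, Klf4, Tfcp2l1, Nr0b1 and Nr5a2. Whether a match goes with a response was not tested. Capitals mark the OCT4 and SOX2 composite in Nanog (CATT, any 3 bases and ATGCAAA, here on the opposite strand), TTCNNNGAA (STAT) in Esrrb and CCACACCC (KLF) in Zfp42; no matches overlapped one another.
Nanog, chr6:122707315-122707614, plus strand: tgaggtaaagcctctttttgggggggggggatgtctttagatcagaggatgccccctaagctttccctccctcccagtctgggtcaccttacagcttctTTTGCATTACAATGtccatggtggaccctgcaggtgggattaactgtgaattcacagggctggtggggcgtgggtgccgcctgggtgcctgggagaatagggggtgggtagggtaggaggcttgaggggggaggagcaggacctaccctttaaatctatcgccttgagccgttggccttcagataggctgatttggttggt
Esrrb, chr12:86360867-86361166, plus strand: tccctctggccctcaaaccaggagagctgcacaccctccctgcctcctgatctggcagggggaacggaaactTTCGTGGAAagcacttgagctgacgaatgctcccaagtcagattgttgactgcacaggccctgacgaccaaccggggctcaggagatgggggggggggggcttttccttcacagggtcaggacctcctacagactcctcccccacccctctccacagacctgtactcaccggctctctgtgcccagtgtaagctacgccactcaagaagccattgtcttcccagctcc
Zfp42, chr8:43306960-43307259, minus strand: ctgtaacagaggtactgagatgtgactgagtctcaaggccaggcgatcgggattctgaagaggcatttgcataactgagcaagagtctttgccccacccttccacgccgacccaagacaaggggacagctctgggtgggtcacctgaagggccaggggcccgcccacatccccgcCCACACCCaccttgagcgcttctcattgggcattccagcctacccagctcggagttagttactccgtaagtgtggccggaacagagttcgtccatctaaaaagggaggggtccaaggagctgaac
The composite match of Nanog begins 151 bases before the start, and such a match was in 7 of 32851 promoter windows (0.0213%), a count that includes 2 overlapping windows of Nanog. The STAT match of Esrrb begins 178 bases before the start (8.3% of all windows held one) and the KLF match of Zfp42 75 bases before it (3.56% of all windows). For the 2 motifs without a match, 3.65% and 0.423% of all windows held TGTTTAC and TCAAGGTCA. A match is a run of letters in a window and not a measured binding site.

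All 10 factors were detected in every library, the lowest value being 3.40 FPKM for Tbx3. Within a library, Nanog stood between the 95.3 and 99.2 percentile of the genes listed in all 3 tables and Zfp42 between 94.8 and 99.3, whereas Tbx3 ranged from 50.9 to 88.3 and Nr5a2 from 59.3 to 85.8. The summed FPKM of the 10 factors was 731 and 561 in the SL Foxd3-/- libraries, against 614 and 530 in SL Foxd3fl/fl. It was 1081 and 1162 in the 2i libraries labelled Foxd3-/-, against 683 and 630 in 2i Foxd3fl/fl, and 1112 and 1155 in tetON Foxd3, against 1286 and 1439 in WT. Only in SL did the sums of the paired groups overlap. Tbx3 varied most between groups, with a 10.3-fold span of the group means, followed by Tfcp2l1 with 8.12-fold and Nr0b1 with 6.13-fold, and Klf2 varied least, with 1.73-fold. These spans cross tables that may have been normalized separately and were not tested.

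**Figure D1:**
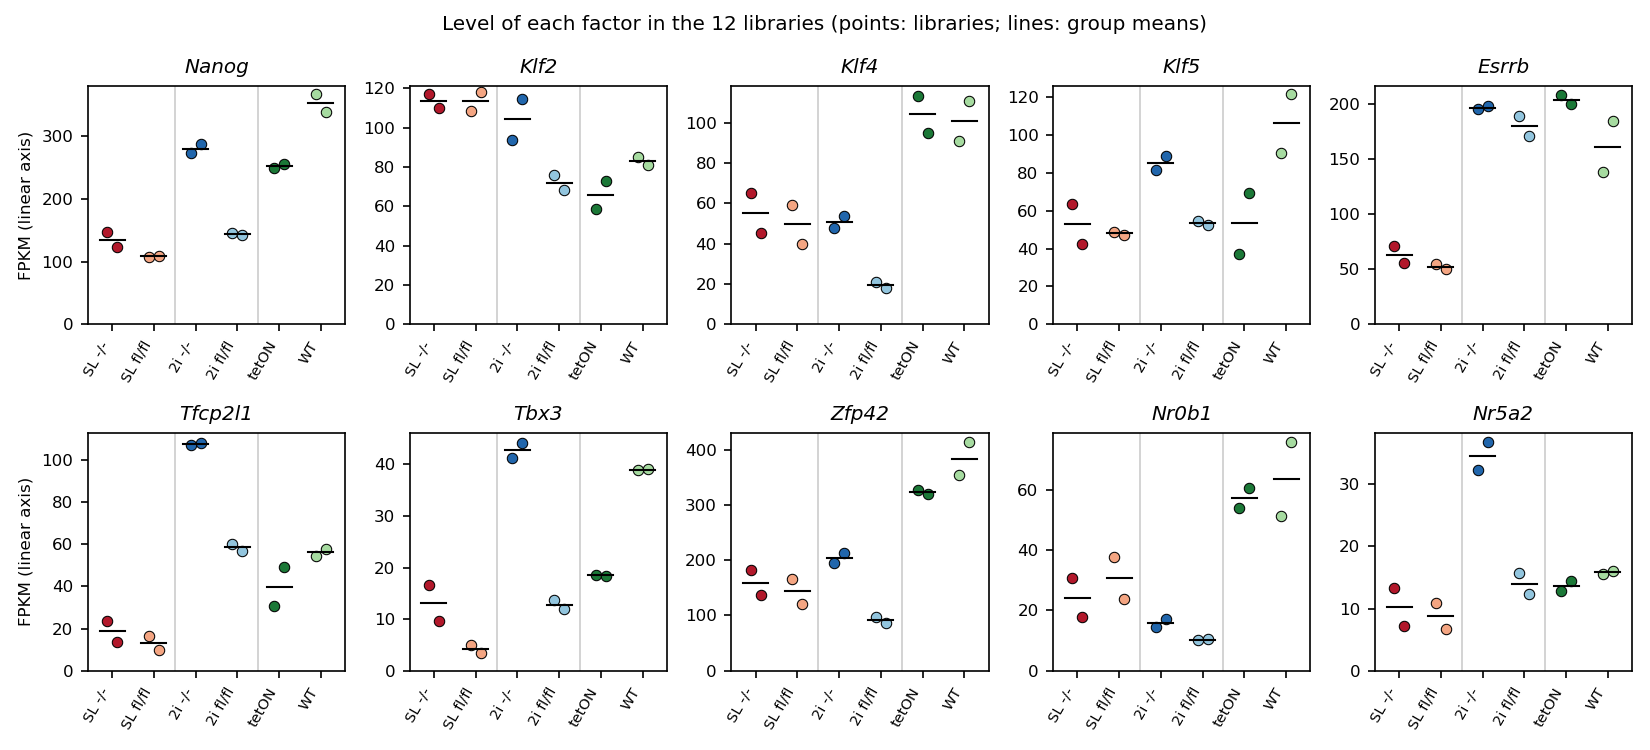
FPKM (vertical axis, linear, from 0) of each of the 10 factors in the 6 groups (horizontal axis); points are libraries, short lines are group means and grey lines part the 3 deposited tables. In 2i, in the FPKM as deposited, both libraries labelled Foxd3-/- lie above both Foxd3fl/fl libraries for all 10 factors. Tbx3 spans from 3.40 to 44.1 FPKM.

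In 2i, 9 of the 10 factors were higher in the libraries labelled Foxd3-/- (limma on log2(FPKM + 1), adjusted p under 0.05 over 11637 genes) and 0 were lower. The background was high: 47.9% of all genes tested passed as higher and 19.7% as lower. The median log2 difference was 0.91 for the factors and 0.19 for all genes. After median-of-ratios scaling the balance over all genes turned, with 30.3% higher and 33.8% lower, while the same 9 factors passed as higher, and the medians were 0.69 and -0.02. In the FPKM as deposited, both libraries labelled Foxd3-/- stood above both Foxd3fl/fl libraries for 10 of 10 factors, against 58.7% of all genes. The log2 difference of Esrrb was -0.09 after the scaling. By the authors' deposited table, adjusted here, 8 of the 10 rose, against 20.6% of its genes, without Klf2 and Esrrb. In bulk RNA a change in the share of cells expressing a factor and a change in its RNA per cell cannot be told apart.

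In SL, 0 of the 10 factors passed the same test, against 1 of 12024 genes (0.00832%), and 0 passed by the authors' deposited table, adjusted here, where 0.44% of all genes passed as higher. At an unadjusted p under 0.05 with limma, Nanog and Tbx3 were higher and none was lower, against 6.07% and 3.05% of all genes. The median log2 difference was 0.17 for the factors and -0.01 for all genes. Both Foxd3-/- libraries stood above both Foxd3fl/fl libraries for Nanog, Esrrb and Tbx3, 3 of 10, against 19.7% of all genes, and for 0 factors below them, against 17.3%. Replicates of a group lay far apart in SL: replicate 1 was above replicate 2 in both groups for 8 of the 10 factors, and over all 10 the median of replicate 1 minus replicate 2 was 0.54 on the log2 scale in Foxd3-/- and 0.43 in Foxd3fl/fl. In Foxd3-/- the gap between replicates was larger than the difference between the groups for all factors but Nanog and Tbx3.

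With Foxd3 overexpressed, 2 of the 10 factors, Nanog and Tbx3, were lower in tetON Foxd3 than in WT, against 1.65% of 11972 genes, and 0 were higher, against 0.994%. By the authors' deposited table, adjusted here, these same 2 fell, against 2.59% of its genes. The median log2 difference was -0.29 for the factors and 0.03 for all genes. Both tetON Foxd3 libraries stood below both WT libraries for 7 of 10 factors, against 22.8% of all genes, and above them for Esrrb alone, against 29.5%. The limma calls were lost without WT replicate 1 (42 genes and 0 factors passed) or WT replicate 2 (90 genes and 0 factors), although the differences hardly moved, at -1.04 and -1.03 for Tbx3 and -0.42 and -0.54 for Nanog. Without tetON Foxd3 replicate 1 Tbx3 alone passed, and without tetON Foxd3 replicate 2 Klf5, Tfcp2l1 and Tbx3 did.

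**Figure D2:**
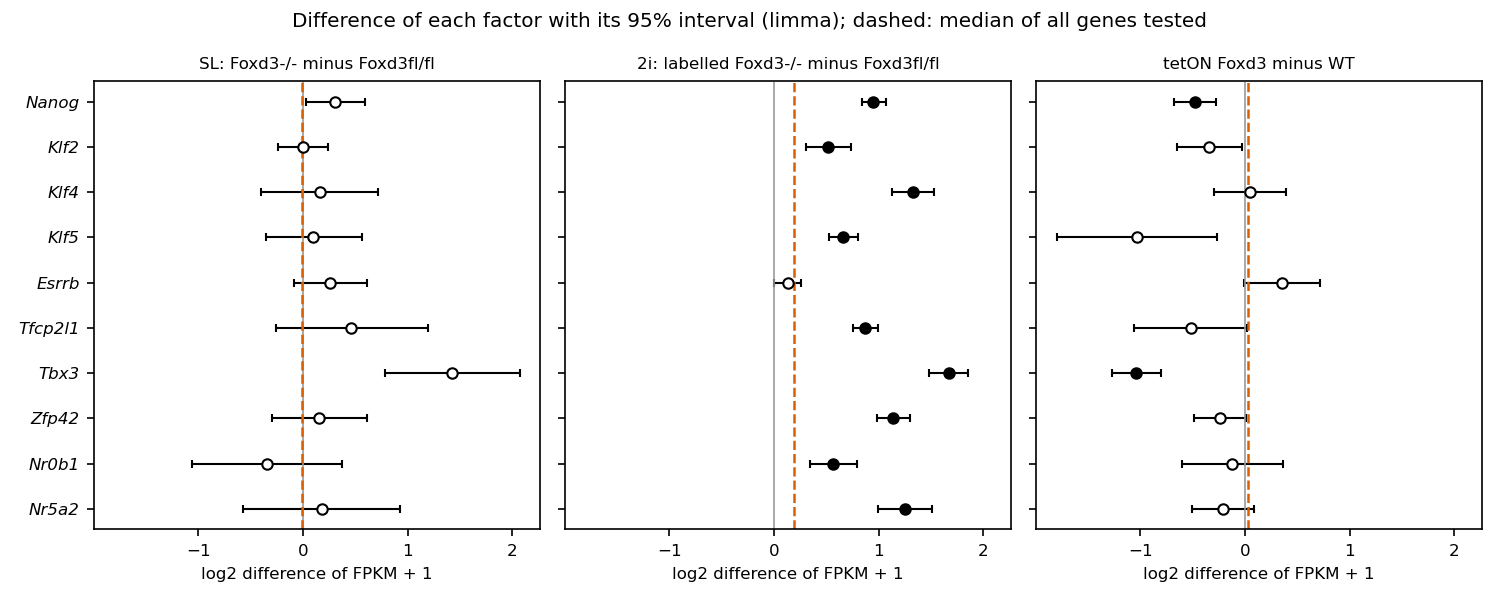
Log2 difference of FPKM + 1 (horizontal axis) with its 95% interval for each factor in SL (left), in 2i (middle) and with Foxd3 overexpressed (right), from limma; filled points have an adjusted p under 0.05 and the dashed line is the median of all genes tested. In 2i 9 factors lie to the right of the dashed line at 0.19, and with Foxd3 overexpressed Nanog and Tbx3 are filled, at -0.48 and -1.04.

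Of 10926 genes tested in all 3 comparisons, 540 (4.94%) had both libraries above both in the SL and 2i contrasts of Foxd3-/- and Foxd3fl/fl labels and below both with Foxd3 overexpressed. Nanog and Tbx3 were the 2 factors with this pattern. Esrrb was the only one of the 10 factors above in all 3 contrasts, a pattern of 372 genes (3.4%). These patterns use the FPKM as deposited. After median-of-ratios scaling the 2i difference of Esrrb turned from 0.13 to -0.09. No factor had the pattern of being below in both media and above with overexpression, which 255 genes had (2.33%). The 3 contrasts share no control library.

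Nanog (chr6:122707489-122714633, plus strand; gene positions are from GENCODE M21, GRCm38, where all 10 genes are protein coding) encodes the homeodomain factor that stabilises the naive state. It measured 273 and 287 FPKM in the 2i libraries labelled Foxd3-/-, against 145 and 142 FPKM in 2i Foxd3fl/fl, a log2 difference of 0.95 (SE 0.05, limma adjusted p = 4.02e-06). In SL it measured 147 and 123 FPKM in Foxd3-/-, against 108 and 109 FPKM in Foxd3fl/fl. The groups did not overlap in either medium, but the SL difference of 0.31 (SE 0.12) had a limma adjusted p of 0.493. Under overexpression Nanog fell to 250 and 255 FPKM in tetON Foxd3, against 367 and 339 FPKM in WT, a log2 difference of -0.48 (SE 0.08, limma adjusted p = 0.0497). That p lies just under the threshold, and leaving out any 1 of the 4 libraries took it to between 0.0781 and 0.159. The group means ran, from high to low, from WT through the 2i libraries labelled Foxd3-/-, tetON Foxd3, 2i Foxd3fl/fl and SL Foxd3-/- to SL Foxd3fl/fl, and of these neighbours the libraries of 2i Foxd3fl/fl and SL Foxd3-/- overlapped.

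Tbx3 (chr5:119670669-119684724, plus strand) encodes a T-box factor that sustains the naive state and is also known in extraembryonic endoderm. It showed the largest log2 difference of the 10 factors in SL and in 2i. In SL it measured 16.6 and 9.60 FPKM in Foxd3-/-, against 4.90 and 3.40 FPKM in Foxd3fl/fl, a 3.15-fold ratio of the means. The log2 difference of 1.42 (SE 0.27, 95% interval 0.78 to 2.07) had a limma adjusted p of 0.186. In the authors' deposited table Tbx3 had 3468 mean reads in SL Foxd3-/- and 1107 in SL Foxd3fl/fl, a fold of 3.13 (adjusted here p = 0.68). The groups did not overlap, and Tbx3 passed limma when the spread was shared over all 12 libraries (adjusted p = 0.0123). It also passed with the replicate number as a block, a pairing that is not stated. It did not pass with no filter (limma adjusted p = 0.381), median-of-ratios scaling (0.175), no trend (0.204) or a pseudocount of 0.1 (0.179). The difference was 1.06 without Foxd3-/- replicate 1 and 1.79 without Foxd3-/- replicate 2. It was 1.63 without Foxd3fl/fl replicate 1 and 1.21 without Foxd3fl/fl replicate 2. In such fits the lone library is assumed to vary like the other group.

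In 2i, Tbx3 measured 41.3 and 44.1 FPKM in the libraries labelled Foxd3-/-, against 13.6 and 11.9 FPKM in Foxd3fl/fl, a log2 difference of 1.67 (SE 0.08, limma adjusted p = 3e-06). In tetON Foxd3 it measured 18.5 and 18.4 FPKM, against 38.9 and 39.0 FPKM in WT, a difference of -1.04 (SE 0.09, limma adjusted p = 0.0177). The replicates of both groups of this last comparison agreed to within 0.01 on the log2 scale, but the call was lost at nearly the same difference without WT replicate 1 (-1.04, limma adjusted p = 0.0696), without WT replicate 2 (-1.03, limma adjusted p = 0.0578) and with no filter on low values (-1.04, limma adjusted p = 0.0558). The order of the group means was the 2i libraries labelled Foxd3-/-, WT, tetON Foxd3, SL Foxd3-/-, 2i Foxd3fl/fl and SL Foxd3fl/fl. Of these neighbours the libraries of SL Foxd3-/- and 2i Foxd3fl/fl overlapped.

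Klf2 (chr8:72319033-72321656, plus strand), Klf4 (chr4:55527143-55532466, minus strand) and Klf5 (chr14:99298691-99315036, plus strand) encode zinc finger factors of the Krüppel-like family, of which Klf4 responds to LIF through Stat3 and Klf2 protein is destabilised by ERK signalling. Klf4 had the largest rise of the family in 2i, at 47.7 and 53.6 FPKM in the libraries labelled Foxd3-/-, against 21.0 and 18.1 FPKM in Foxd3fl/fl (log2 difference 1.33, SE 0.09, limma adjusted p = 1.08e-05). Klf5 rose to 81.5 and 88.9 FPKM in the libraries labelled Foxd3-/-, against 54.3 and 52.5 FPKM in Foxd3fl/fl (0.66, SE 0.06, limma adjusted p = 4.28e-05). Klf2 rose to 93.8 and 115 FPKM in the libraries labelled Foxd3-/-, against 75.8 and 68.2 FPKM in Foxd3fl/fl (0.52, SE 0.09, limma adjusted p = 0.00121). All 3 separated fully in 2i, but Klf2 did not pass in the authors' deposited table (fold 1.21, adjusted here p = 0.169). Klf5 was not past the threshold when the spread was shared over all 12 libraries (limma adjusted p = 0.0602).

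In SL the 3 Klf genes did not separate. Klf4 measured 65.1 and 45.5 FPKM in Foxd3-/-, against 59.2 and 39.8 FPKM in Foxd3fl/fl, and its difference of 0.16 had a 95% interval from -0.40 to 0.72. Klf5 measured 63.5 and 42.2 FPKM in Foxd3-/-, against 49.0 and 47.4 FPKM in Foxd3fl/fl. Klf2 measured 117 and 110 FPKM in Foxd3-/-, against 109 and 118 FPKM in Foxd3fl/fl, a difference of 0.00 with a 95% interval from -0.24 to 0.24. The Foxd3-/- replicates of each lay farther apart than the group means did.

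With Foxd3 overexpressed no Klf gene passed. Klf5 measured 37.2 and 69.5 FPKM in tetON Foxd3, against 90.7 and 122 FPKM in WT, a difference of -1.03 (SE 0.31, limma adjusted p = 0.141). It did pass without tetON Foxd3 replicate 2 (-1.47, limma adjusted p = 0.0204) and with the spread shared over all 12 libraries (limma adjusted p = 0.0255). Klf2 measured 58.6 and 72.8 FPKM in tetON Foxd3, against 85.4 and 80.8 FPKM in WT, and Klf4 113 and 94.7 FPKM in tetON Foxd3, against 90.8 and 111 FPKM in WT. The libraries of Klf5 and Klf2 did not overlap between the groups, and those of Klf4 did.

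The make-up of the Klf transcripts differed between groups, on the FPKM scale, which is per length. Klf4 made up 21.4% and 20.8% of the summed Klf2, Klf4 and Klf5 FPKM in the 2i libraries labelled Foxd3-/-, against 13.9% and 13.1% in 2i Foxd3fl/fl. Klf5 made up 17.8% and 29.3% in tetON Foxd3, against 34.0% and 38.8% in WT, and Klf4 made up 54.2% and 39.9% in tetON Foxd3, against 34.0% and 35.4% in WT. Klf2 was the most abundant of the 3 in every SL and 2i library, at 42.1% to 57.6%, and no longer so in WT, at 32.0% and 25.8%, or tetON Foxd3, at 28.0% and 30.7%. From high to low, the group means of Klf2 ran from SL Foxd3-/-, SL Foxd3fl/fl, the 2i libraries labelled Foxd3-/-, WT and 2i Foxd3fl/fl to tetON Foxd3, with overlap between both SL groups, between SL Foxd3fl/fl and the 2i libraries labelled Foxd3-/-, and between the last 2. Klf4 ran from tetON Foxd3 through WT, SL Foxd3-/-, the 2i libraries labelled Foxd3-/- and SL Foxd3fl/fl to 2i Foxd3fl/fl, and of these neighbours tetON Foxd3 and WT overlapped, as did the 3 groups in the middle. Klf5 ran from WT through the 2i libraries labelled Foxd3-/-, 2i Foxd3fl/fl, tetON Foxd3 and SL Foxd3-/- to SL Foxd3fl/fl, and each of the last 4 overlapped its neighbour.

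**Figure D3:**
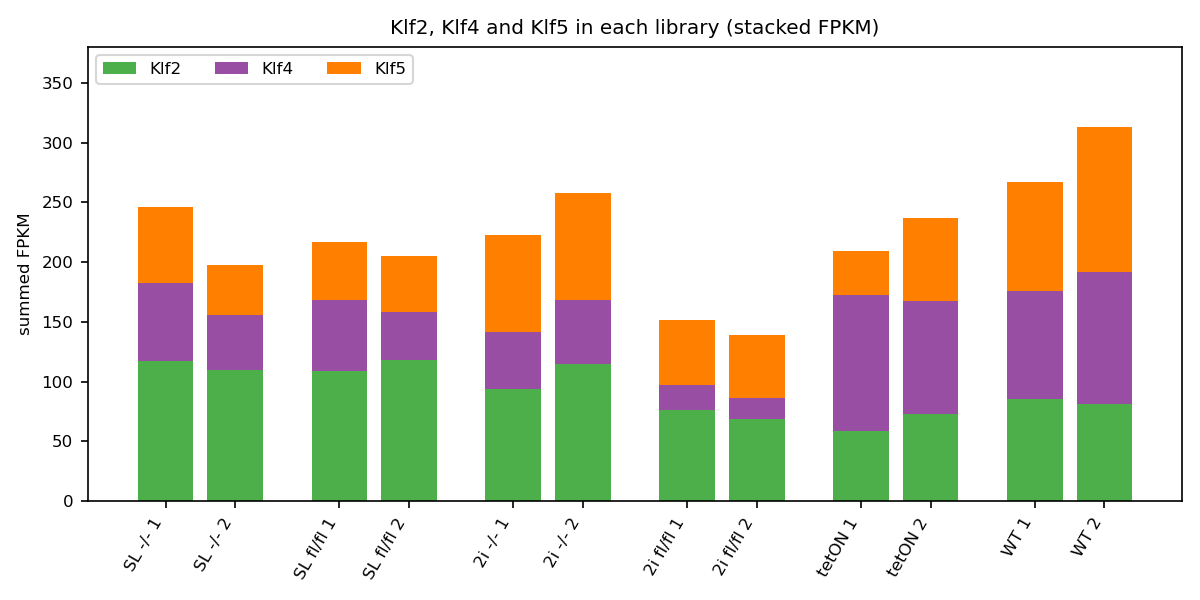
Stacked FPKM of Klf2, Klf4 and Klf5 (vertical axis, from 0) in each of the 12 libraries (horizontal axis, group and replicate). Klf2 is the largest part in all SL and 2i libraries, and the Klf5 part is smallest, at 17.8%, in tetON Foxd3 replicate 1.

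Esrrb (chr12:86361117-86521628, plus strand), Nr5a2 (chr1:136842571-136960448, minus strand) and Nr0b1 (chrX:86191764-86195947, plus strand) encode nuclear receptors. Esrrb and Nr5a2 bind related DNA sites and activate naive genes, and Nr0b1 lacks the usual DNA-binding domain and acts mostly by binding other factors. Esrrb moved least in 2i: 196 and 198 FPKM in the libraries labelled Foxd3-/-, against 189 and 171 FPKM in Foxd3fl/fl, a difference of 0.13 (SE 0.06, limma adjusted p = 0.0782). The sign turned to -0.09 after median-of-ratios scaling (limma adjusted p = 0.171), and the authors' deposited table lists a fold of -1.05 (adjusted here p = 0.15). Without Foxd3fl/fl replicate 1 it passed as higher (0.20, limma adjusted p = 0.00891). In SL it measured 71.6 and 55.3 FPKM in Foxd3-/-, against 54.5 and 50.2 FPKM in Foxd3fl/fl (limma adjusted p = 0.703). Under overexpression Esrrb measured 209 and 200 FPKM in tetON Foxd3, against 138 and 185 FPKM in WT, a difference of 0.35 (SE 0.15, limma adjusted p = 0.254). The groups did not overlap in any of the 3 contrasts and the values were nominally higher in Foxd3-/- and in tetON Foxd3, with no call over all genes.

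Nr5a2 rose in 2i to 32.2 and 36.8 FPKM in the libraries labelled Foxd3-/-, against 15.7 and 12.3 FPKM in Foxd3fl/fl (log2 difference 1.25, SE 0.11, limma adjusted p = 4.13e-05). In SL it measured 13.4 and 7.16 FPKM in Foxd3-/-, against 10.8 and 6.72 FPKM in Foxd3fl/fl, with replicate 1 far above replicate 2 in both groups. Under overexpression Nr5a2 measured 12.8 and 14.4 FPKM in tetON Foxd3, against 15.6 and 16.1 FPKM in WT (limma adjusted p = 0.397). Its highest group was the 2i libraries labelled Foxd3-/-, apart from all others, and from there it ran through WT, 2i Foxd3fl/fl, tetON Foxd3 and SL Foxd3-/- to SL Foxd3fl/fl, each overlapping the next.

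Nr0b1 rose in 2i to 14.4 and 17.2 FPKM in the libraries labelled Foxd3-/-, against 10.1 and 10.7 FPKM in Foxd3fl/fl (0.56, SE 0.10, limma adjusted p = 0.00102), a call that did not hold with the spread shared over all 12 libraries (limma adjusted p = 0.113). It was the only factor with a negative difference in SL, at 30.6 and 17.8 FPKM in Foxd3-/-, against 37.6 and 23.6 FPKM in Foxd3fl/fl (-0.34, SE 0.30, limma adjusted p = 0.869). In tetON Foxd3 it measured 53.9 and 60.5 FPKM, against 51.3 and 75.6 FPKM in WT. The groups overlapped in SL and with Foxd3 overexpressed. The order of group means was WT, tetON Foxd3, SL Foxd3fl/fl, SL Foxd3-/-, the 2i libraries labelled Foxd3-/- and 2i Foxd3fl/fl, with overlap in the first pair of neighbours and between the SL groups. Both 2i groups were thus below every other group. The reverse held for Nanog, Klf5, Esrrb, Tfcp2l1 and Nr5a2, whose 2i group means were above both SL group means. For Nanog, Klf5 and Nr5a2 the libraries of 2i Foxd3fl/fl and SL Foxd3-/- overlapped. These orders cross tables that may have been normalized separately and were not tested. For Esrrb the order was tetON Foxd3, the 2i libraries labelled Foxd3-/-, 2i Foxd3fl/fl, WT, SL Foxd3-/- and SL Foxd3fl/fl, with overlap only between 2i Foxd3fl/fl and WT.

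Tfcp2l1 (chr1:118627945-118685168, plus strand) encodes a CP2-family factor that carries much of the LIF signal downstream of Stat3. It measured 107 and 108 FPKM in the 2i libraries labelled Foxd3-/-, against 60.3 and 56.9 FPKM in 2i Foxd3fl/fl (0.87, SE 0.05, limma adjusted p = 8.86e-06). In SL it measured 23.7 and 13.9 FPKM in Foxd3-/-, against 16.5 and 10.02 FPKM in Foxd3fl/fl, with overlap between the groups (0.46, SE 0.30, limma adjusted p = 0.775). Without Foxd3-/- replicate 2 it passed there (0.83, limma adjusted p = 0.0199). In tetON Foxd3 it measured 30.8 and 49.0 FPKM, against 54.7 and 57.6 FPKM in WT (-0.52, SE 0.22, limma adjusted p = 0.256), and it passed without tetON Foxd3 replicate 2 (-0.84, limma adjusted p = 0.0356). The order was the 2i libraries labelled Foxd3-/-, 2i Foxd3fl/fl, WT, tetON Foxd3, SL Foxd3-/- and SL Foxd3fl/fl, with overlap between 2i Foxd3fl/fl and WT and between the SL groups.

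Zfp42 (chr8:43295063-43306980, minus strand), also known as Rex1, encodes a zinc finger protein whose expression is a standard marker of the naive state. It measured 194 and 213 FPKM in the 2i libraries labelled Foxd3-/-, against 97.5 and 86.1 FPKM in 2i Foxd3fl/fl (1.14, SE 0.07, limma adjusted p = 9.31e-06). In SL it measured 182 and 137 FPKM in Foxd3-/-, against 166 and 122 FPKM in Foxd3fl/fl, overlapping groups with a difference of 0.15. Under overexpression Zfp42 measured 328 and 320 FPKM in tetON Foxd3, against 353 and 415 FPKM in WT (-0.24, SE 0.10, limma adjusted p = 0.256). The order was WT, tetON Foxd3, the 2i libraries labelled Foxd3-/-, SL Foxd3-/-, SL Foxd3fl/fl and 2i Foxd3fl/fl, with overlap between the SL groups. The 2i Foxd3fl/fl group was the lowest of the 6 for Zfp42, Klf4 and Nr0b1.

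Whether the effect differed between the media was tested as the 2i contrast minus the SL contrast, in 1 limma fit of the 8 Foxd3fl/fl;Cre-ER libraries. The difference was positive for 4 of the 10 factors past the threshold, Nanog (0.65, SE 0.13, limma adjusted p = 0.0111), Klf2 (0.52, SE 0.15, limma adjusted p = 0.0386), Klf4 (1.17, SE 0.29, limma adjusted p = 0.0236) and Zfp42 (0.99, SE 0.24, limma adjusted p = 0.0207). The background was 18.4% of 12497 genes as higher and 5.55% as lower, with a median of 0.17 for all genes and 0.60 for the factors. After median-of-ratios scaling the excess of higher calls turned, with 1226 genes higher and 1452 lower, against 2294 and 693 before. After this scaling 0 of the 10 factors passed (3 at an unadjusted p under 0.05), with limma adjusted p-values of 0.052 for Nanog, 0.0539 for Klf4, 0.0567 for Zfp42 and 0.156 for Klf2. The count was 0 without 2i replicate 2 of either group, 2 without 2i replicate 1 of either group or without SL Foxd3-/- replicate 2, and 6 without SL Foxd3-/- replicate 1. For Tbx3 the difference was 0.24 with a 95% interval from -0.49 to 0.97, and for Esrrb -0.13 with an interval from -0.51 to 0.24. The 2 media also differ in feeders and serum, and Foxd3 FPKM did not separate the 2i groups.

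**Figure D4:**
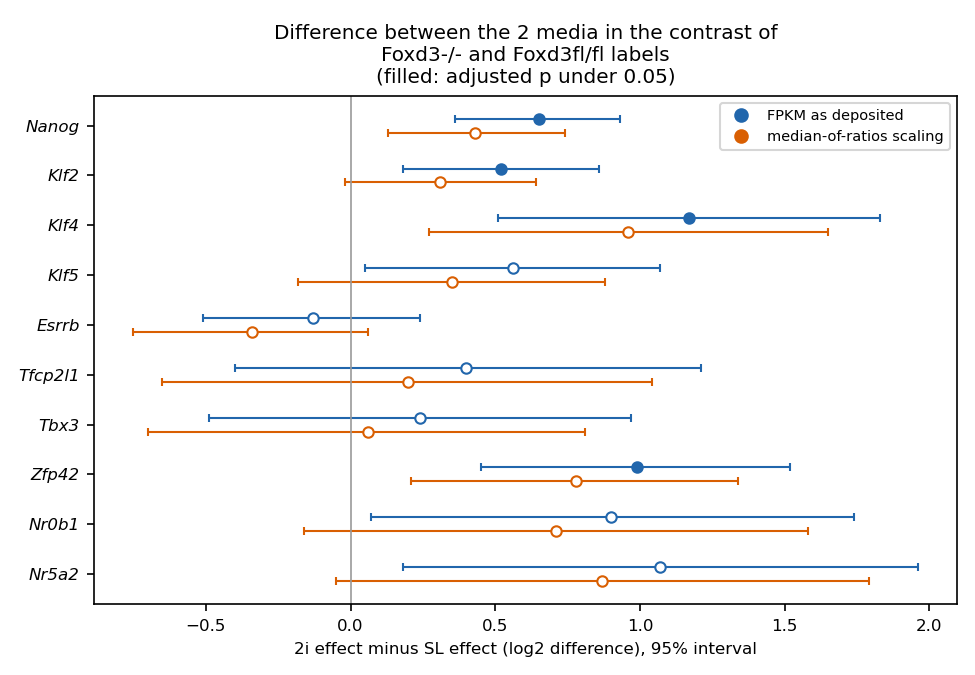
The 2i effect minus the SL effect for each factor (horizontal axis, log2, with 95% interval), with the FPKM as deposited (blue, upper) and after median-of-ratios scaling (orange, lower); filled points have an adjusted p under 0.05. Filled points are Nanog, Klf2, Klf4 and Zfp42 as deposited, and none after scaling.

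The factors were also compared with one another over the 12 libraries, as log2(FPKM + 1) after subtracting the mean of each table; the points share libraries and replicate spread, so the correlations are a description. Zfp42 followed Klf4 and Nr5a2 most closely (r = 0.97 each), and Nanog followed Tbx3 (r = 0.93). Esrrb stood apart from the other 9, with a median r of 0.26 and a range from -0.12 with Klf2 to 0.48 with Klf4. The Klf genes were unlike: Klf2 and Klf5 had r = 0.83, and Klf4 and Klf5 had r = 0.44.

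**Figure D5:**
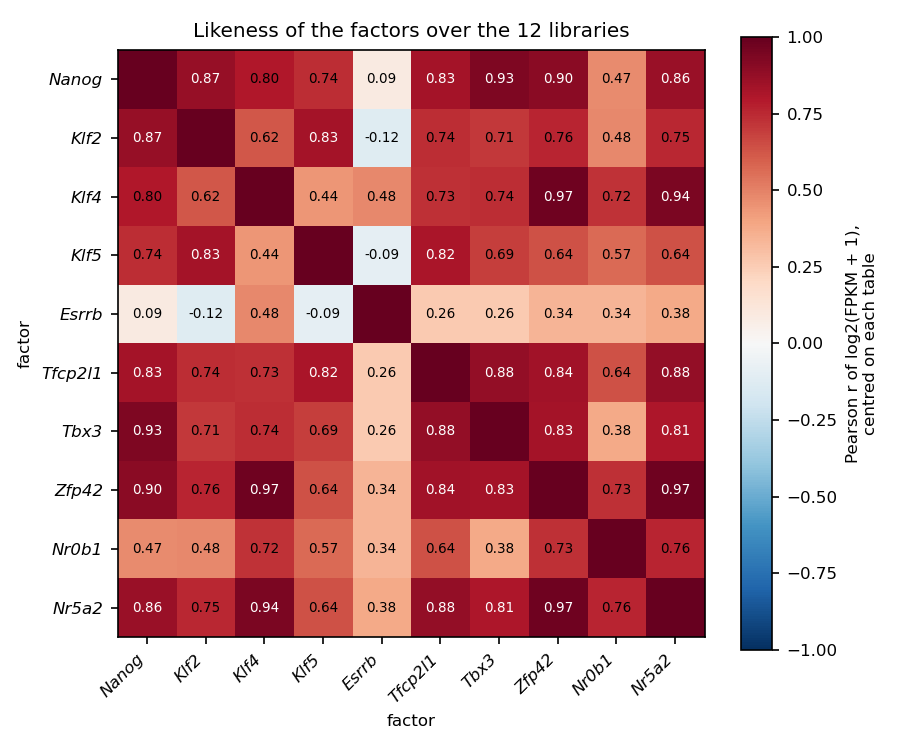
Pearson r between each pair of factors (both axes) over the 12 libraries, from log2(FPKM + 1) centred on each of the 3 tables. The row of Esrrb is palest, with a lowest value of -0.12, and Klf4, Zfp42 and Nr5a2 form the darkest block.

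Among 8589 other genes with a mean of at least 5 FPKM, the genes most like 9 of the factors by the same measure were named as a description. They were Mtf2 for Nanog (r = 0.981), Jarid2 for Zfp42 (r = 0.987), Dpm2 for Klf4 (r = 0.985), Vasp for Klf5 (r = 0.983) and Acadm for Tbx3 (r = 0.981). Taf1c was most like Nr5a2 (r = 0.981), Wibg most like Nr0b1 (r = 0.962), Ggnbp2 most like Klf2 (r = 0.959) and Kansl1 most like Esrrb (r = 0.937). Mtf2 and Jarid2 are known as accessory subunits of Polycomb repressive complex PRC2. Each printed r is the highest of 8589 candidates, and whether the most alike genes share a function was not tested.

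Other genes of the naive state were read from a list of 23. In the 2i libraries labelled Foxd3-/-, 17 of the 23 were higher and 2 lower, with a median of 0.48 (all genes 0.19), where 47.9% of all genes were higher and 19.7% lower. Beside Fbxo15 (1.15) and Zfp57 (0.93), the chromatin protein gene Dppa4 rose to 53.9 and 55.0 FPKM, against 28.9 and 28.5 FPKM in Foxd3fl/fl (0.90, SE 0.06, limma adjusted p = 9.31e-06). In SL 0 of 23 passed, against 1 of 12024 genes tested, with a median of 0.14 (all genes -0.01). In tetON Foxd3 1 was higher and 6 lower, with a median of -0.43 (all genes 0.03), where 0.994% of all genes were higher and 1.65% lower. The lysosomal mannosidase gene Manba fell to 17.6 and 15.7 FPKM, against 52.8 and 60.2 FPKM in WT (limma adjusted p = 0.0118). Dppa3, a maternal factor also of germ cells, fell to 2.02 and 2.02 FPKM, against 9.95 and 11.5 FPKM in WT (limma adjusted p = 0.0145), and Dppa5a to 462 and 563 FPKM, against 1384 and 1252 FPKM in WT (limma adjusted p = 0.0177).

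The lists of pathways that feed the network are given for 2i beside the same background of 47.9% higher and 19.7% lower, and shares near it say nothing particular of a list. Of 7 LIF and STAT3 pathway genes tested, 3 rose and 3 fell in the libraries labelled Foxd3-/-. Stat3 itself fell to 36.5 and 35.3 FPKM, against 86.8 and 77.1 FPKM in Foxd3fl/fl (-1.17, SE 0.07, limma adjusted p = 6.31e-06). The receptor subunit gene Il6st rose, at 15.6 and 15.6 FPKM, against 10.9 and 9.24 FPKM in Foxd3fl/fl (limma adjusted p = 0.000622). Jak1 also rose, at 20.4 and 20.9 FPKM, against 14.7 and 15.2 FPKM in Foxd3fl/fl (0.44, limma adjusted p = 0.000706). Of 6 Wnt and GSK3 pathway genes, 3 rose and 3 fell. Tcf7l1, the repressor of naive genes that GSK3 inhibition counters, rose to 38.3 and 43.7 FPKM, against 15.0 and 14.1 FPKM in Foxd3fl/fl (1.43, SE 0.08, limma adjusted p = 5.31e-06), while Tcf7 fell to 42.4 and 44.8 FPKM, against 74.9 and 71.0 FPKM (limma adjusted p = 2.52e-05). Whether these pathway genes have a part in the differences of the naive factors was not tested.

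Of 8 MEK and ERK response genes tested in 2i, 6 rose and 2 fell, against the 47.9% and 19.7% of all genes. The immediate early gene Fos fell to 2.19 and 2.12 FPKM in the libraries labelled Foxd3-/-, against 6.88 and 8.18 FPKM in Foxd3fl/fl (limma adjusted p = 2.08e-05), and the ERK phosphatase gene Dusp6 rose, at 1.80 and 1.75 FPKM, against 0.692 and 0.524 FPKM (limma adjusted p = 0.000253). Of the core factors, Sox2 rose to 157 and 169 FPKM in the libraries labelled Foxd3-/-, against 105 and 87.6 FPKM in Foxd3fl/fl (0.76, limma adjusted p = 0.000101), and Pou5f1 did not pass. Of 7 formative factors tested, 3 rose and 2 fell, near those shares of all genes. Otx2 rose to 9.89 and 11.1 FPKM, against 5.58 and 5.65 FPKM in Foxd3fl/fl (limma adjusted p = 0.00015), and Dnmt3b fell to 11.2 and 12.02 FPKM, against 21.2 and 19.4 FPKM (limma adjusted p = 9.46e-05).

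In SL 0 genes of these 5 lists passed, against 1 of 12024 genes tested (0.00832%). In tetON Foxd3 the lists gave 2 calls, both lower, where 0.994% of all genes tested were higher and 1.65% lower. They were 1 of 11 MEK and ERK response genes tested and 1 of 8 formative factors tested. The ERK-induced ETS factor gene Etv4 fell to 19.4 and 21.6 FPKM, against 67.0 and 72.5 FPKM in WT (limma adjusted p = 0.0113). Grhl2, a factor of epithelial genes, fell to 2.21 and 2.96 FPKM, against 9.05 and 6.90 FPKM in WT (limma adjusted p = 0.0421).

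The summed markers of other cell types also differed between paired libraries. In SL the 20 fibroblast markers summed to 603 and 557 FPKM in Foxd3-/-, against 351 and 429 FPKM in Foxd3fl/fl. Of the 18 tested 0 passed, with differences from 0.20 to 0.85, while Lum was at 0.0915 FPKM or less in each SL library. Trophoblast markers (9) summed to 303 and 259 FPKM in SL Foxd3-/-, against 191 and 154 FPKM in SL Foxd3fl/fl, and the 6 listed 2-cell-like markers to 17.7 and 9.95 FPKM, against 4.69 and 4.33 FPKM. The 11 primitive endoderm markers summed to 233 and 218 FPKM in SL Foxd3-/-, against 183 and 184 FPKM in SL Foxd3fl/fl. Of the markers tested there, 0 of 6 trophoblast, 0 of 3 2-cell-like and 0 of 5 primitive endoderm markers passed, against 1 of 12024 genes. Neural progenitor markers went the other way in SL. They summed to 29.6 and 32.5 FPKM in Foxd3-/-, against 38.6 and 40.3 FPKM in Foxd3fl/fl, with 0 of 2 tested passing. In 2i fibroblast markers summed to 348 and 337 FPKM in the libraries labelled Foxd3-/-, against 328 and 303 FPKM in Foxd3fl/fl. Of 6 tested, 4 were higher and 1 lower, against 47.9% and 19.7% of all genes. Their differences ran from -1.61 to 1.17, with a median of 0.73 (all genes 0.19). Col1a1, named after its values were seen, was at 8.06 and 7.57 FPKM, against 3.23 and 3.63 FPKM in Foxd3fl/fl. Thy1 went the other way, at 0.232 and 0.281 FPKM, against 2.70 and 2.98 FPKM in Foxd3fl/fl. Most of the sum was Fn1, at 325 and 314 FPKM, against 315 and 289 FPKM, and Lum was listed at 0 in all 4 libraries. Trophoblast markers summed to 75.8 and 85.4 FPKM in the 2i libraries labelled Foxd3-/-, against 51.7 and 55.7 FPKM in 2i Foxd3fl/fl. Of 4 tested 1 was higher and 0 lower, with a median of 0.08 (all genes 0.19). Neural progenitor markers summed to 12.6 and 12.9 FPKM in the libraries labelled Foxd3-/-, against 7.91 and 7.84 FPKM in Foxd3fl/fl. Of 2 tested 1 was higher and 0 lower, with a median of 0.44. Primitive endoderm markers summed to 240 and 243 FPKM in the 2i libraries labelled Foxd3-/-, against 189 and 204 FPKM in 2i Foxd3fl/fl, with 5 of 6 tested higher and 1 lower, against 47.9% and 19.7% of all genes. In 2i the 2-cell-like markers summed to 1.32 and 1.30 FPKM in the libraries labelled Foxd3-/-, against 0.0301 and 0.0924 FPKM in Foxd3fl/fl. They were too low there to be tested. With Foxd3 overexpressed, the 6 neural progenitor markers summed to 16.2 and 20.7 FPKM in tetON Foxd3, against 6.18 and 11.1 FPKM in WT. Of 3 tested, 2 were higher, against 0.994% of all genes. Fibroblast markers summed to 120 and 89.4 FPKM in tetON Foxd3, against 78.0 and 62.0 FPKM in WT, with 0 of 6 passing. The 2-cell-like markers summed to 1.24 and 1.11 FPKM in tetON Foxd3, against 8.35 and 10.3 FPKM in WT. Of 2 tested, 2 were lower, against 1.65% of all genes. Primitive endoderm markers summed to 108 and 140 FPKM in tetON Foxd3, against 160 and 153 FPKM in WT, with 0 of 7 tested passing. The part of these shifts in the differences of the 10 factors was not tested.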

How the data were processed

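RNA from 12 mouse embryonic stem cell libraries, 2 in each of 6 groups, was measured as FPKM in 3 deposited tables, 1 per comparison. Per the submitters' processing notes, the tools were TopHat2, Cufflinks, DESeq2, SAMtools and FastQC, with mm10 and GRCm38 named as builds; no tool version is stated there. The FPKM per library, the mean reads of each group (a read signal), the signed fold and the p-value to 6 decimals are columns the authors deposited, per the file headers. The medium of a deletion table was taken from the table's name.

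From the FPKM, log2(FPKM + 1) was fitted with limma 3.58.1 (trend, R 4.3.3) on the 4 libraries of a comparison (2 residual degrees of freedom), for genes with a mean of at least 1 FPKM in a group. The medium difference was fitted on 8 libraries (4 residual degrees of freedom). P-values were Benjamini-Hochberg adjusted over all genes tested, with a threshold of 0.05, and fold changes are on the log2(FPKM + 1) scale, which understates the change of low genes. The deposited p-values were adjusted the same way. The code was tested on simulated data. Alternatives were a pseudocount of 0.1, no filter, median-of-ratios scaling, all 12 libraries in 1 fit, no trend, a replicate block, the deposited p-values and leaving out each library. Named genes of other lists were up to 3 per list and comparison with the smallest adjusted p, and of the like genes the first of each 3 is printed, except for Tfcp2l1, whose like gene is not reported here. The members and lists were chosen with earlier results of these data known. No test crosses tables that could have been normalized separately, except the medium difference and the 12-library fit. The depth of single libraries is unknown, so no counting interval is given.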

Additional observations from a re-analysis of the deposited data

Results flagged for a closer look

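For 4 factors the effect of the deletion label differed between the media by a test of the difference itself (2i minus SL, limma). The differences were 0.65 for Nanog, 0.52 for Klf2, 1.17 for Klf4 and 0.99 for Zfp42, from 2i effects of 0.95, 0.52, 1.33 and 1.14 and SL effects of 0.31, 0.00, 0.16 and 0.15 in the same order. None of the 4 passed after median-of-ratios scaling, where they were 0.43, 0.31, 0.96 and 0.78.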

How the results depend on the processing

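In 2i the totals of 7864 genes and 9 factors stayed within 1.5 times under every alternative, but the 5573 higher and 2291 lower genes became 3509 and 3921 with scaling and 4071 and 3980 by the deposited p-values. In SL (1 gene, 0 factors) the 12-library fit gave 172 genes and 1 factor, the deposited p-values 107 genes, and leaving out 1 library 1 to 313 genes and 0 to 2 factors. With Foxd3 overexpressed (316 genes, 2 factors) no filter gave 0 genes and 0 factors, the 12-library fit 1727 genes, the deposited p-values 909 genes, no trend 1 factor, and leaving out 1 library 42 to 342 genes and 0 to 3 factors. For the medium difference (2987 genes, 4 factors) no filter gave 1 factor, scaling 0, and leaving out 1 library 683 to 3761 genes and 0 to 6 factors. The same replicate number marks no stated pairing. With the replicate number as a block, the counts were 1997 genes and 5 factors in SL, 2473 genes and 4 factors with overexpression and 5342 genes and 8 factors for the medium difference. Deviations of same-numbered libraries correlated at 0.605 in SL, -0.0539 in 2i and 0.596 with overexpression.

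Signs turned for values not past the threshold as reported (2i Esrrb passed without Foxd3fl/fl replicate 1, and SL Nr0b1 with the block). In SL these were Klf2 (-0.02 with scaling, -0.03 by the deposited fold, and -0.06 to 0.06 leaving out 1 library), Klf4 (-0.12 to 0.44), Klf5 (-0.19 to 0.39), Zfp42 (-0.07 to 0.38), Nr0b1 (-0.72 to 0.04) and Nr5a2 (-0.23 to 0.59). In 2i Esrrb was -0.09 with scaling and -0.07 by the deposited fold. With overexpression Klf4 (-0.09 to 0.19) and Nr0b1 (-0.40 to 0.15) turned on leaving out 1 library, as did the medium difference of Esrrb (-0.32 to 0.05) and Tbx3 (-0.12 to 0.61). The cause of these changes was not tested.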

Other observations

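The FPKM and the authors' deposited mean reads gave different ratios in 2i. For the 10 factors the log2 ratio of the 2 groups was higher from FPKM than from mean reads by 0.06 to 0.29 in 2i (median 0.23), whereas the 2 differed by 0.01 to 0.04 in SL and 0.01 to 0.03 with Foxd3 overexpressed. For Foxd3 itself the ratio from FPKM minus that from mean reads was -0.90 in 2i, -0.51 in SL and 0.29 when overexpressed.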
